A study of Homo sapiens with 48 samples.

Results

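The 9 genes described here code for matrix proteases and their inhibitors, namely MMP1, MMP2, MMP3, MMP10, MMP14, PLAU, TIMP1, TIMP2 and TIMP3. They were taken by name from the gene count table, where each name matched 1 row, so they make up 9 of 19842 gene names. RNA was sequenced from IMR90 cells, a line of human lung fibroblasts, that carry ER:RAS G12V, an oncogenic RAS protein fused to the oestrogen receptor so that 4-hydroxytamoxifen (4OHT) switches it on. The 48 libraries fall into 6 groups of 8. Cells received 4OHT or its DMSO control for 6 days, were then transfected with siRNA against SF3B1 (siSF3B1-13 or siSF3B1-16), against RBM39 (siRBM39-06 or siRBM39-08) or with a non-targeting siRNA (siNT1 or siNT2), and were collected 2 days later from medium with 0.5% serum. Each siRNA has 4 libraries per treatment, and the siRNAs of a target were pooled. All groups carry the retrovirally delivered ER:RAS fusion, the DMSO controls included, so RAS activity and any other action of 4OHT cannot be told apart. SF3B1 is a core subunit of the spliceosome and RBM39 is a splicing factor of the RNA-binding motif family.

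Matrix metalloproteinases (MMPs) are zinc enzymes that are made as inactive proenzymes and, once cut, digest collagens and other proteins around the cell. MMP1 is an interstitial collagenase, MMP3 and MMP10 are stromelysins, MMP2 is a gelatinase, and MMP14 is a membrane-bound protease that activates pro-MMP2 at the cell surface with TIMP2 as its docking partner. PLAU codes for urokinase, which turns plasminogen into plasmin, a protease that cuts matrix proteins and some pro-MMPs. The tissue inhibitors of metalloproteinases (TIMPs) bind and block the active enzymes, and TIMP3 stays attached to the matrix and also blocks several ADAM proteases. Fibroblasts that enter senescence under oncogenic RAS are known to secrete collagenase and stromelysins among the factors of their secretory phenotype.

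Library totals ran from 31467221 to 52734636 gene counts, with a median of 39656598, and levels are given as CPM, the count of a gene relative to the TMM-scaled size of its library. SF3B1 RNA was left at 9.14% of its siNT level in DMSO and 8.31% in 4OHT after siSF3B1, and RBM39 RNA at 16.1% and 13.5% after siRBM39, while RBM39 RNA was higher after siSF3B1 by 0.83 and 1.06 on the log2 scale. All 6 fibroblast markers (COL1A1, COL1A2, COL3A1, PDGFRB, THY1 and VIM) were present in every group. The epithelial markers EPCAM and CDH1 together stayed at or below 3.77 CPM in every library, the endothelial marker CDH5 at or below 0.670 CPM and the leukocyte marker PTPRC at or below 0.196 CPM, while the other leukocyte marker CD68 was measured in all libraries. One library stood apart for several of the genes described here, replicate 4 of siRBM39-08 in 4OHT, and results that rest on it are given with and without it. The labels do not say that the 4 replicates of an siRNA are separate cultures. The methods of the study describe its in vitro replicates in general as separate experiments. If those of this series were not, p-values measure only the spread between these samples, which may be technical.

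Per unit of transcript length, the inhibitors outweighed the collagenase and the stromelysins in cells without RAS activity. In cRPKM (RPKM corrected for the mappable length of a gene, so that levels of different genes can be compared), the order in DMSO siNT was TIMP1 at 845 ± 41 (SD, n = 8), TIMP2 at 634 ± 32.4, MMP2 at 572 ± 17.9, PLAU at 284 ± 16.5, MMP14 at 280 ± 35.6, TIMP3 at 153 ± 8.07, MMP1 at 70.1 ± 4.59, MMP3 at 4.33 ± 0.565 and MMP10 at 1.38 ± 0.215. TIMP2 and MMP2 overlapped in their ranges over the 8 libraries, as did PLAU and MMP14, and the other neighbours in this order did not. In 4OHT siNT the order was MMP1 at 4141 ± 164 cRPKM, TIMP1 at 2196 ± 59.5, PLAU at 2002 ± 41.9, MMP3 at 1657 ± 61.6, MMP14 at 621 ± 47.9, MMP2 at 383 ± 9.46, TIMP2 at 273 ± 6.89, MMP10 at 56.8 ± 4.83 and TIMP3 at 21.4 ± 0.844, with no overlap between neighbours. MMP1 thus moved from seventh to first place and TIMP2 from second to seventh.

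Activation of RAS changed all 9 genes, with 6 higher and 3 lower in 4OHT siNT than in DMSO siNT at an adjusted p under 0.05 (edgeR quasi-likelihood test, Benjamini-Hochberg over 9991 genes). The collagenase, the stromelysins, MMP14, PLAU and TIMP1 rose, and MMP2, TIMP2 and TIMP3 fell. Over all genes tested, 39% were called higher and 39.1% lower, so a call alone is common in this comparison. For none of the 9 genes did the CPM ranges of the groups overlap. How common such separation is over all genes was not counted, here or in the comparisons below, so it describes these genes only. MMP10 held 2531 counts in all 24 DMSO libraries, far under the minimum of 10000 counts in total that a gene had to reach, so it entered the test only through its high values in 4OHT and had to differ. MMP3 held 9304 counts in the same libraries, just under that minimum.

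The stromelysins and the collagenase had the largest changes of the 9. MMP3 (ENSG00000149968) ranged from 5.96 to 8.83 CPM in DMSO siNT (median 7.75) and from 2757 to 3056 CPM in 4OHT siNT (median 2925). Its log2 fold change of 8.59 ± 0.11 (SE; edgeR adjusted p = 4.26e-47) was the 14th highest of the 9991 genes. MMP1 (ENSG00000196611) ranged from 122 to 147 CPM (median 134) in DMSO and from 7516 to 8381 CPM (median 7875) in 4OHT, a log2 fold change of 5.89 ± 0.10 (adjusted p = 5.03e-42). MMP10 (ENSG00000166670), the second stromelysin, stayed the scarcest of these secreted enzymes, with 1.58 to 2.48 CPM (median 2.05) in DMSO and 77.5 to 96.6 CPM (median 85.2) in 4OHT, a log2 fold change of 5.37 ± 0.18 (adjusted p = 4.07e-30). Every 4OHT library lay above every DMSO library for all 3 genes. MMP3 and MMP10 are closely related in sequence, and how reads that fit both were treated is not given in the sources used here.

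PLAU (ENSG00000122861), which codes for urokinase, rose from 590 to 702 CPM (median 633) in DMSO siNT to 4415 to 4655 CPM (median 4488) in 4OHT siNT, a log2 fold change of 2.82 ± 0.05 (adjusted p = 5.98e-41). MMP14 (ENSG00000157227), the surface activator of pro-MMP2, ranged from 854 to 1165 CPM (median 1009) and from 2001 to 2460 CPM (median 2279), a log2 fold change of 1.16 ± 0.11 (adjusted p = 7.83e-13). The gelatinase itself went the other way. MMP2 (ENSG00000087245) ranged from 1986 to 2176 CPM (median 2101) in DMSO and from 1367 to 1468 CPM (median 1396) in 4OHT, a log2 fold change of −0.57 ± 0.05 (adjusted p = 3.62e-14).

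The 3 inhibitors did not move together. TIMP1 (ENSG00000102265), the soluble inhibitor of most secreted MMPs, ranged from 651 to 757 CPM (median 698) in DMSO siNT and from 1774 to 1904 CPM (median 1825) in 4OHT siNT, a log2 fold change of 1.38 ± 0.09 (adjusted p = 6.54e-19). TIMP2 (ENSG00000035862), which also docks pro-MMP2 on MMP14, fell from 2107 to 2384 CPM (median 2282) to 946 to 1013 CPM (median 972), a log2 fold change of −1.21 ± 0.06 (adjusted p = 8.99e-23). TIMP3 (ENSG00000100234), the matrix-bound inhibitor, fell from 650 to 740 CPM (median 687) to 92.5 to 102 CPM (median 97.0), a log2 fold change of −2.83 ± 0.15 (adjusted p = 8.96e-22). TIMP3 was the 170th lowest of the 9991 genes, TIMP2 the 819th and MMP2 the 2020th. These are bulk libraries, in which fewer cells that express a gene and less RNA per cell cannot be told apart. The summed level of the 6 fibroblast markers was also lower with RAS activity, at 50221 to 57449 CPM in DMSO siNT and 14283 to 15090 CPM in 4OHT siNT, with 5 of the 6 called lower and VIM not (log2 fold change −0.00). CDH5 went from at most 0.0258 CPM to between 0.296 and 0.670 CPM, and CD68 was higher (log2 fold change 0.91); their part in these results was not tested.

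**Figure D1:**
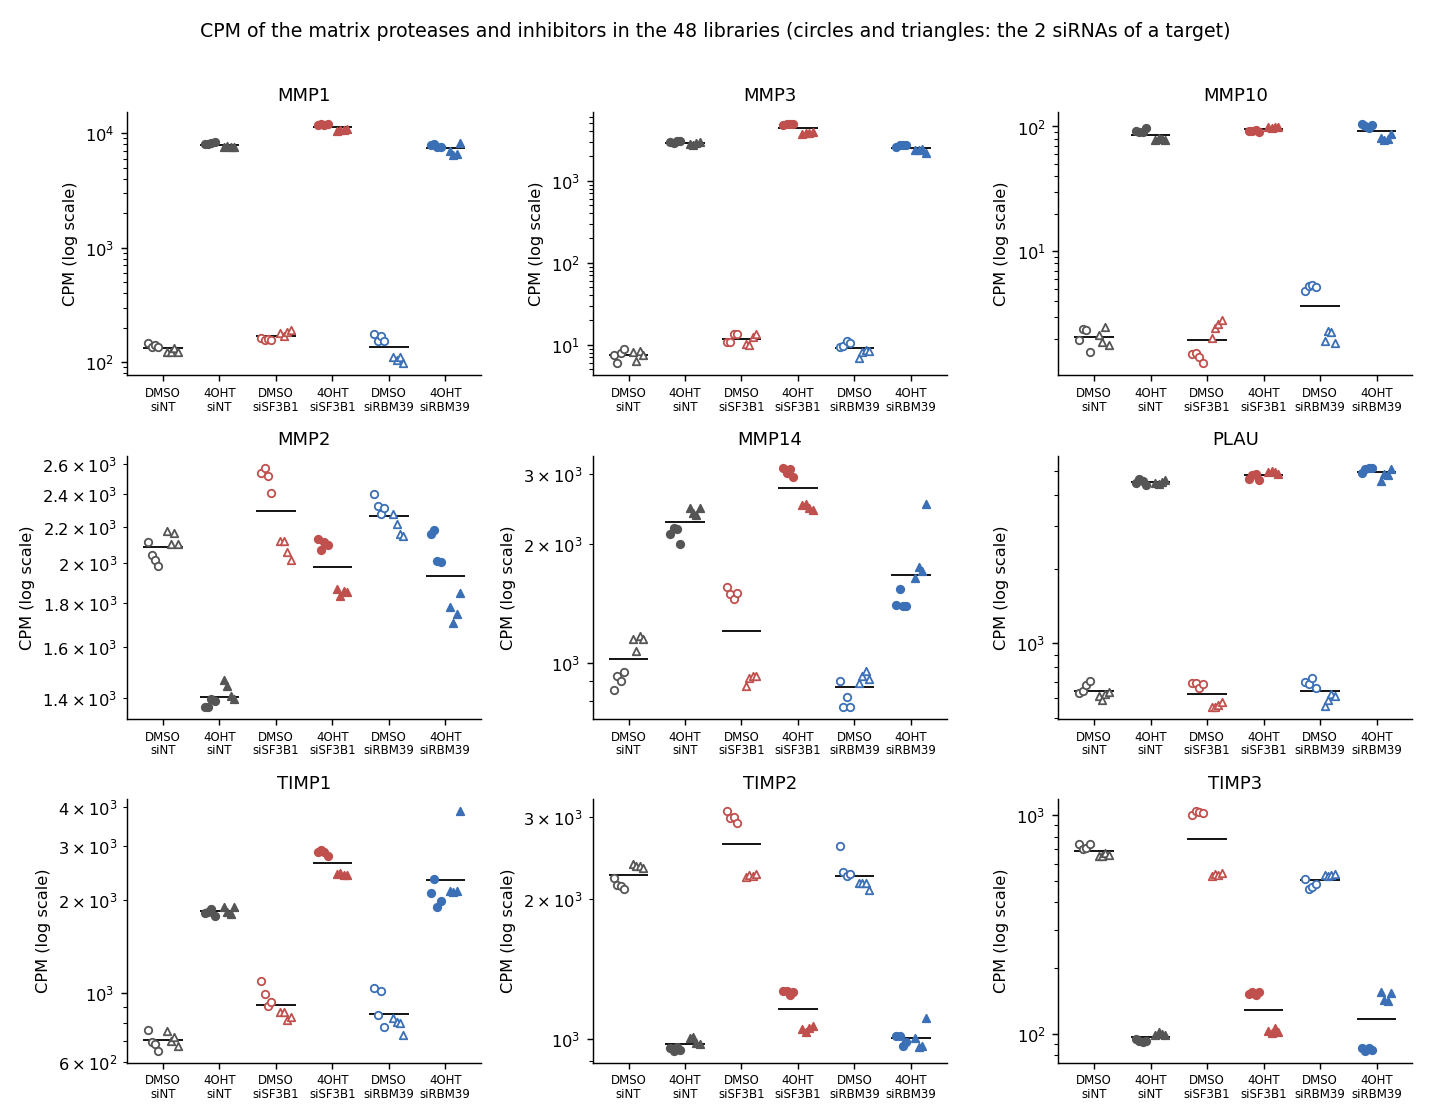
Each panel plots the CPM of 1 gene (y axis, log scale) in the 48 libraries, grouped on the x axis by treatment and siRNA target; open symbols are DMSO, filled symbols 4OHT, circles and triangles the 2 siRNAs of a target, and horizontal lines the group means. MMP3 lies between 2757 and 3056 CPM in 4OHT siNT and under 10 CPM in every DMSO siNT library, TIMP3 falls to a median of 97.0 CPM, and the siRNAs of a target separate in several panels.

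Taken as sums of cRPKM, the secreted MMPs (MMP1, MMP2, MMP3 and MMP10) stood at 648 ± 16.0 in DMSO siNT and 6238 ± 210 in 4OHT siNT (SD, n = 8), and the 3 TIMPs at 1632 ± 57.8 and 2490 ± 63.2. The ratio of the sums was 0.397 ± 0.00589 in DMSO and 2.51 ± 0.131 in 4OHT, and every 4OHT library had more RNA of secreted MMPs than of TIMPs while every DMSO library had less. Within the sums, MMP2 made up 88.3% of the secreted MMPs in DMSO and 6.15% in 4OHT, MMP1 10.8% and 66.4%, and TIMP1 51.8% and 88.2% of the TIMPs. These are shares of RNA on the cRPKM scale and carry no information on protein or enzyme activity.

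The bases upstream of the start site are shown for the 3 genes with entries that changed most with RAS activity, MMP10 and PLAU among those that rose and TIMP3 as the one that fell most. They are the 250 bases before the start in RefSeq on GRCh38.p14, 5′ to 3′ on the strand of the gene, for MMP10 at chr11:102780629-102780878 (minus strand), for PLAU at chr10:73910882-73911131 (plus strand, the downstream of its 2 entries) and for TIMP3 at chr22:32801455-32801704 (plus strand). Capitals mark matches on either strand to a TATA box (TATAAA), to a GC box (GGGCGG) and to an AP-1 site (TGANTCA).
MMP10 promoter: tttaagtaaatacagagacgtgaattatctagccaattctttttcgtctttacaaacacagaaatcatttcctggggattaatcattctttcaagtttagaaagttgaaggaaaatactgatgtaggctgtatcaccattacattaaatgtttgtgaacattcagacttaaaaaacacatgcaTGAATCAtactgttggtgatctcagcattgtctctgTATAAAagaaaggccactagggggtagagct
PLAU promoter: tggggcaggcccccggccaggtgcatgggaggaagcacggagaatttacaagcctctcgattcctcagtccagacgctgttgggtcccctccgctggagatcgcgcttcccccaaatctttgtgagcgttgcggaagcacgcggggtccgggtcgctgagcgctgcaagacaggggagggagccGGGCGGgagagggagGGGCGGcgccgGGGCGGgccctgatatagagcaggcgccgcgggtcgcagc
TIMP3 promoter: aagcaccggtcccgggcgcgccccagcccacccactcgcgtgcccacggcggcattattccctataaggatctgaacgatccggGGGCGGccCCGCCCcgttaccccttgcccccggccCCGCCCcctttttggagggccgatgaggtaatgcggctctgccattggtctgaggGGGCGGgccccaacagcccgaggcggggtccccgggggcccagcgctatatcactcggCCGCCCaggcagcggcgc
MMP10 held TATAAA from 31 to 26 bases and TGAATCA from 67 to 61 bases before the start, and no GC box. The PLAU window shown held 3 GC boxes and TIMP3 5, with neither of the other motifs, and the upstream PLAU window, at chr10:73910360-73910609, held no match to any of the 3. In the same windows MMP14 held 1 GC box and TIMP1 2, and entries were found for 5 of the 9 genes, the others being MMP1, MMP2, MMP3 and TIMP2. Of 35116 such windows, 10.7% held the TATA box letters, 42.6% the GC box and 6.57% the AP-1 site. A match here describes letters and not a bound site.

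With SF3B1 depleted, 4OHT moved the same 9 genes in the same directions as with siNT, again with 6 higher (37.6% of all genes) and 3 lower (38.1%). As with siNT, MMP10 entered the test only through its high values in 4OHT and had to differ, here and with RBM39 depleted. MMP3 had a log2 fold change of 8.52 ± 0.11, MMP1 6.05 ± 0.10, MMP10 5.60 ± 0.18, PLAU 2.96 ± 0.05, TIMP1 1.53 ± 0.09, MMP14 1.20 ± 0.11, MMP2 −0.21 ± 0.05, TIMP2 −1.18 ± 0.06 and TIMP3 −2.61 ± 0.15, with adjusted p-values up to 2.02e-04. With RBM39 depleted, 6 genes were higher (39.1% of all genes) and 3 lower (36.4%), at 8.10 ± 0.11 for MMP3, 5.79 ± 0.10 for MMP1, 4.66 ± 0.17 for MMP10, 2.95 ± 0.05 for PLAU, 1.44 ± 0.09 for TIMP1, 0.94 ± 0.11 for MMP14, −0.23 ± 0.05 for MMP2, −1.16 ± 0.06 for TIMP2 and −2.12 ± 0.15 for TIMP3. MMP2 was the only gene whose CPM ranges overlapped between 4OHT and DMSO, and it did so under both knockdowns. Each siRNA taken alone gave the same 9 calls in the same directions, where 7168 to 7645 of all 9991 genes were called. The ratio of summed cRPKM of secreted MMPs to TIMPs reached 2.57 ± 0.0520 in 4OHT siSF3B1 and 1.99 ± 0.364 in 4OHT siRBM39, where the lowest value, 1.24, was that of replicate 4 of siRBM39-08, and without this library the mean was 2.09 ± 0.217 (n = 7).

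**Figure D2:**
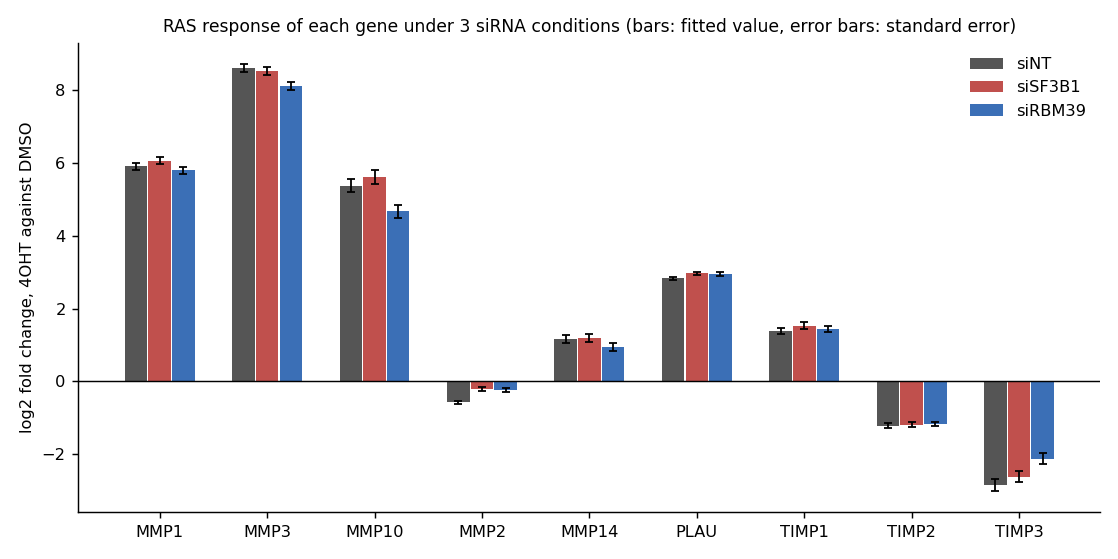
Bars give the fitted log2 fold change of 4OHT over DMSO (y axis) for each gene (x axis) with siNT, siSF3B1 or siRBM39, and error bars its standard error. The 6 genes that rise and the 3 that fall do so under every siRNA, from 8.59 for MMP3 to −2.83 for TIMP3 with siNT, and with siRBM39 the bars of MMP10 (4.66) and TIMP3 (−2.12) are shorter than with siNT.

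The siNT libraries served as control for each knockdown, and the values of the knockdowns are given side by side for that reason. SF3B1 knockdown raised several of these genes and lowered none of them in the pooled test. In DMSO, 5 of the 9 were called higher (36.5% of all genes) and 0 lower (36.2%), and in 4OHT 7 were called higher (39.4%) and 0 lower (37.6%). The median log2 fold change of the 9 was 0.22 in DMSO and 0.41 in 4OHT, against 0.02 and 0.03 over all genes tested. MMP1, MMP3 and TIMP1 lay above siNT in all 8 libraries in both treatments without overlap.

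In 4OHT, MMP1 ranged from 10456 to 12054 CPM (median 11337) after siSF3B1, above its siNT range of 7516 to 8381 CPM, a log2 fold change of 0.51 ± 0.08 (edgeR adjusted p = 2.84e-07). MMP3 ranged from 3729 to 4930 CPM (median 4341), against 2757 to 3056 CPM, a change of 0.57 ± 0.08 (adjusted p = 1.07e-08). TIMP1 ranged from 2408 to 2905 CPM (median 2614), against 1774 to 1904 CPM, a change of 0.52 ± 0.09 (adjusted p = 1.01e-06). The collagenase, a stromelysin and their main soluble inhibitor were thus each 1.43-fold to 1.49-fold higher in the same libraries. MMP2 ranged from 1830 to 2132 CPM (median 1967), against 1367 to 1468 CPM, a change of 0.49 ± 0.05 (adjusted p = 4.79e-12), and TIMP2 from 1040.0 to 1273 CPM, against 946 to 1013 CPM, a change of 0.25 ± 0.06 (adjusted p = 3.23e-04). TIMP3 changed by 0.41 ± 0.15 (adjusted p = 0.0106) and MMP14 by 0.28 ± 0.11 (adjusted p = 0.0203), with overlapping ranges. For MMP14 the controls differed, at 2001 to 2194 CPM with siNT1 and 2364 to 2460 CPM with siNT2. The siNT2 range overlapped that of siSF3B1-16, 2438 to 2520 CPM. For TIMP3 siNT2 (99.3 to 102.1 CPM) also overlapped siSF3B1-16 (101.5 to 106.5 CPM). MMP10 (0.15 ± 0.14, adjusted p = 0.330) and PLAU (0.10 ± 0.05, adjusted p = 0.0604) did not pass the test. The MMP14 call was lost without replicate 1, 2 or 3 of every siRNA (adjusted p = 0.104, 0.0629 and 0.0637).

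In DMSO, the genes called after siSF3B1 were MMP3 (log2 fold change 0.64 ± 0.09, adjusted p = 7.46e-09), TIMP1 (0.38 ± 0.09, adjusted p = 1.89e-04), MMP1 (0.36 ± 0.08, adjusted p = 1.68e-04), TIMP2 (0.22 ± 0.06, adjusted p = 0.00151) and MMP2 (0.14 ± 0.05, adjusted p = 0.0156). MMP14 (0.24 ± 0.11), TIMP3 (0.18 ± 0.14), MMP10 (−0.08 ± 0.19) and PLAU (−0.04 ± 0.05) did not pass it. The MMP2 call was lost without replicate 2 (adjusted p = 0.0706). The siRNAs disagreed in this treatment. TIMP3 held 1008 to 1043 CPM in the 4 siSF3B1-13 libraries and 528 to 546 CPM in the 4 siSF3B1-16 libraries, on opposite sides of the siNT range of 650 to 740 CPM, with log2 fold changes of 0.58 ± 0.02 and −0.36 ± 0.03, each called. MMP14 (0.56 and −0.16), MMP10 (−0.53 and 0.26) and PLAU (0.10 and −0.18) were also called in opposite directions by siSF3B1-13 and siSF3B1-16. The control siRNAs differed too for MMP14 in DMSO, at 854 to 946 CPM with siNT1 and 1073 to 1165 CPM with siNT2. The siSF3B1-16 libraries held 875 to 926 CPM of MMP14, within the siNT1 range. Of the 9 genes, 3 were called in the same direction with each siRNA alone in DMSO (MMP1, MMP3 and TIMP1), 4 in opposite directions and 2 with siSF3B1-13 alone (MMP2 and TIMP2). Of all 9991 genes, siSF3B1-13 and siSF3B1-16 alone called 7613 and 7184 in DMSO and 7914 and 7538 in 4OHT. How many of these agreed in direction was not counted. In 4OHT, 7 of the 9 were called in the same direction with each siRNA alone and 0 in opposite directions, although siSF3B1-13 gave the larger value for each of these 7, at 0.67 against 0.09 for TIMP3, 0.43 against 0.13 for MMP14 and 0.37 against 0.11 for TIMP2.

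**Figure D3:**
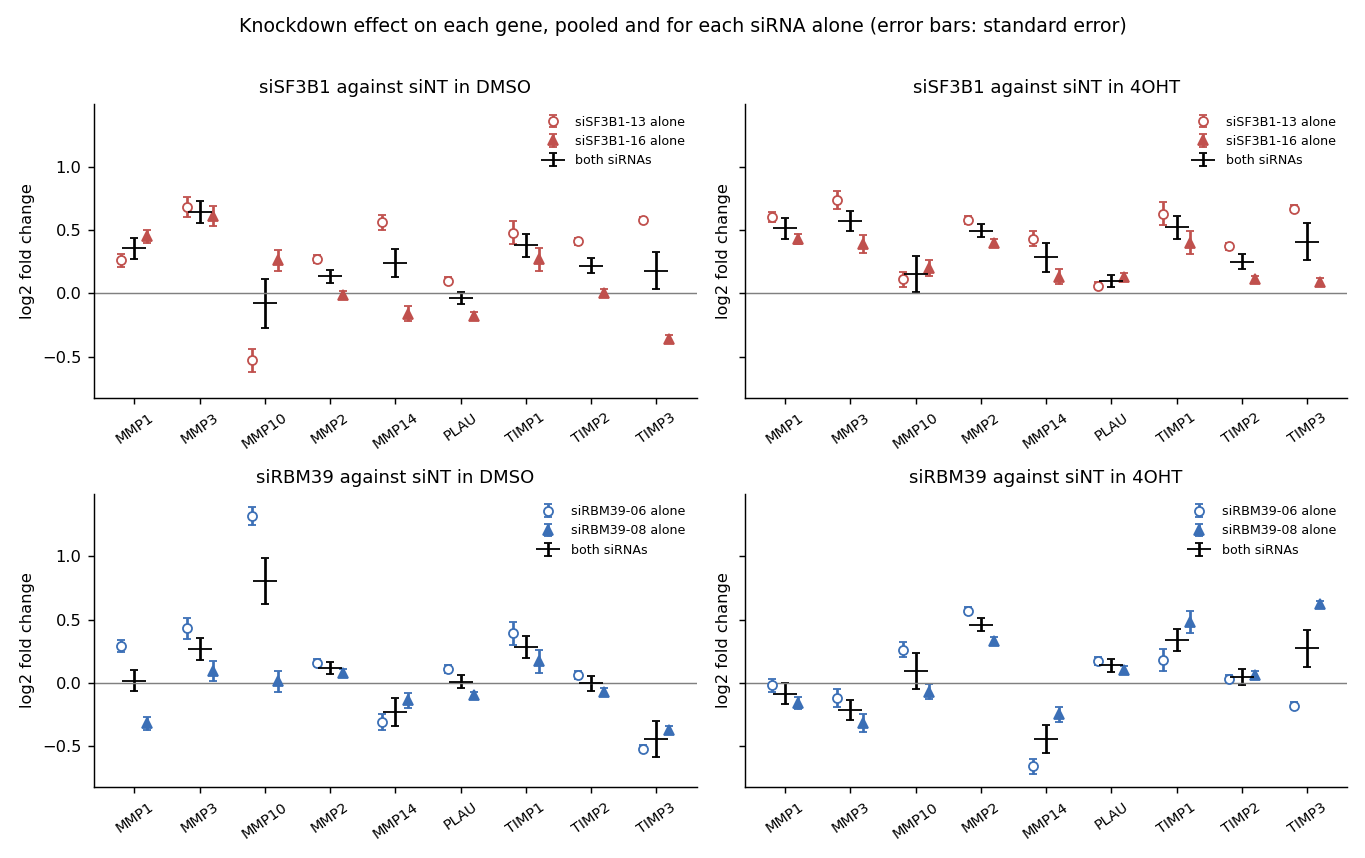
Each panel plots the log2 fold change of a knockdown against siNT (y axis) for the 9 genes (x axis) in DMSO or 4OHT; circles and triangles give each siRNA alone against all 8 siNT libraries, black marks both siRNAs together, and error bars the standard error. Errors of a siRNA alone come from a fit with 1 mean per siRNA and leave out the spread between siRNAs. For siSF3B1 in DMSO the circle and triangle of TIMP3 lie at 0.58 and −0.36, whereas in 4OHT every siSF3B1 value is above 0.

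RBM39 knockdown moved these genes in both directions. In DMSO, 3 of the 9 were called higher (23.9% of all genes) and 1 lower (22.2%), and in 4OHT 3 were called higher (32.2%) and 2 lower (24.3%). The median log2 fold change of the 9 was 0.02 in DMSO and 0.10 in 4OHT, against 0.02 and 0.05 over all genes. Only TIMP1 was called higher in both treatments, and MMP3 was called higher in DMSO and lower in 4OHT. Each of these calls was lost with 1 of the siRNAs alone. TIMP1 stood at 0.17 with siRBM39-08 in DMSO (edgeR adjusted p = 0.133) and at 0.18 with siRBM39-06 in 4OHT (adjusted p = 0.0943), and MMP3 at 0.09 with siRBM39-08 in DMSO (adjusted p = 0.395) and at −0.12 with siRBM39-06 in 4OHT (adjusted p = 0.134). The summed fibroblast markers ranged from 35073 to 53472 CPM in DMSO siRBM39, against 50221 to 57449 CPM in DMSO siNT, and their part in these values was not tested.

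In DMSO, the stromelysin MMP10 ranged from 1.84 to 5.40 CPM after siRBM39 (median 3.55), against 1.58 to 2.48 CPM in siNT, a log2 fold change of 0.81 ± 0.18 (edgeR adjusted p = 2.35e-04). This value came from 1 of the siRNAs, since siRBM39-06 held 5.16 ± 0.256 CPM and siRBM39-08 2.09 ± 0.238 CPM (SD, n = 4), which put the first 1.32 ± 0.07 above siNT on the log2 scale and the second 0.01 ± 0.08 above it, a difference that passed the test for siRBM39-06 alone. TIMP3 fell below every siNT library, to 463 to 538 CPM (median 519) against 650 to 740 CPM, a log2 fold change of −0.44 ± 0.14 (adjusted p = 0.0104), with −0.52 for siRBM39-06 and −0.37 for siRBM39-08. TIMP1 changed by 0.28 ± 0.09 (adjusted p = 0.00794) and MMP3 by 0.27 ± 0.09 (adjusted p = 0.00993). The TIMP1 call was lost without replicate 1 or 3 (adjusted p = 0.0528 and 0.0743) and the MMP3 call without replicate 2 or 3 (adjusted p = 0.122 and 0.0504). MMP1 was called in opposite directions by siRBM39-06 (0.29) and siRBM39-08 (−0.32), as was PLAU (0.11 and −0.10). MMP14 (−0.23 ± 0.11), MMP2 (0.12 ± 0.05) and TIMP2 (−0.00 ± 0.06) did not pass the pooled test.

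In 4OHT, MMP2 was raised by siRBM39 as it was by siSF3B1, to between 1707 and 2181 CPM (median 1925) against 1367 to 1468 CPM in siNT, a log2 fold change of 0.46 ± 0.05 (adjusted p = 1.49e-10). MMP14, its surface activator, ranged from 1390.0 to 2520 CPM (median 1584) against 2001 to 2460 CPM, a change of −0.45 ± 0.11 (adjusted p = 7.39e-04). Its highest value was that of replicate 4 of siRBM39-08, and the other 7 libraries lay below the siNT range. Without this library the MMP14 change was −0.56 (adjusted p = 9.31e-06). MMP3 ranged from 2185 to 2733 CPM (median 2524), below every siNT library, a change of −0.22 ± 0.08 (adjusted p = 0.0168), which was lost without replicate 3 or 4 (adjusted p = 0.0546 and 0.0526). TIMP1 ranged from 1893 to 3872 CPM (median 2132), a change of 0.34 ± 0.09 (adjusted p = 0.00111). Its highest value was again that of replicate 4 of siRBM39-08, and without it the change was 0.20 (adjusted p = 0.00517). PLAU changed by 0.14 ± 0.05 (adjusted p = 0.0150), a call lost without any 1 of the 4 replicate numbers (adjusted p from 0.0506 to 0.0765). TIMP3 was divided by siRNA, with 84.1 to 86.6 CPM in siRBM39-06 and 141 to 156 CPM in siRBM39-08 around the siNT range of 92.5 to 102 CPM, and its pooled change of 0.27 ± 0.15 did not pass the test (adjusted p = 0.108). MMP1 (−0.09 ± 0.08), MMP10 (0.10 ± 0.14) and TIMP2 (0.04 ± 0.06) did not pass it either.

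Whether a knockdown acted differently in cells with and without RAS activity was tested as an interaction, the log2 change of the knockdown in 4OHT minus that in DMSO. For siSF3B1, 1 of the 9 genes was called higher (17.9% of all genes) and 0 lower (19.9%). This was MMP2, whose log2 change after siSF3B1 was higher in 4OHT, with a difference of 0.36 ± 0.07 (edgeR adjusted p = 7.85e-05) and values of 0.32 and 0.41 for the siRNAs alone. In DMSO the MMP2 change was 0.27 with siSF3B1-13 alone and −0.01, not called, with siSF3B1-16 alone. With siSF3B1-13 alone 4 of the 9 genes passed the interaction test (4546 of all 9991 genes) and with siSF3B1-16 alone 5 (3694 of 9991). These fits used 1 mean per siRNA, which with all siRNAs kept also gave 5 (4883 of 9991). For siRBM39, 2 were called higher (7.28% of all genes) and 2 lower (6.87%). MMP2 again had a higher value in 4OHT (0.34 ± 0.07, adjusted p = 5.77e-04), as had TIMP3 (0.71 ± 0.20, adjusted p = 0.0126), whose pooled change in 4OHT was not called. With siRBM39-06 TIMP3 was lower than siNT in DMSO (−0.52) and in 4OHT (−0.18). With siRBM39-08 it was lower in DMSO (−0.37) and higher in 4OHT (0.62). MMP3 (−0.49 ± 0.12, adjusted p = 0.00277) and MMP10 (−0.71 ± 0.23, adjusted p = 0.0288) had lower values in 4OHT than in DMSO. The MMP10 difference was −1.06 with siRBM39-06 and −0.09 with siRBM39-08, and its call was lost without any 1 of the 4 replicate numbers (adjusted p from 0.0545 to 0.139) and with limma-voom (adjusted p = 0.0788). The TIMP3 call was lost without replicate 1, 2 or 3 (adjusted p from 0.0585 to 0.0697).

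Set against each other, the knockdowns differed for the collagenase, a stromelysin and MMP14. In DMSO, 5 of the 9 genes were higher after siSF3B1 than after siRBM39 (33.6% of all genes) and 1 was lower (34.1%), and in 4OHT 4 were higher (33.7%) and 0 lower (37.7%). In 4OHT, MMP3 was higher by 0.79 ± 0.08 on the log2 scale (edgeR adjusted p = 2.62e-12) and MMP1 by 0.60 ± 0.08 (adjusted p = 1.12e-08), with no overlap between the groups, while MMP14 was higher by 0.73 ± 0.11 (adjusted p = 1.64e-07) and TIMP2 by 0.21 ± 0.06 (adjusted p = 0.00279) with overlap. In DMSO, TIMP3 (0.62 ± 0.14), MMP14 (0.47 ± 0.11), MMP3 (0.37 ± 0.09), MMP1 (0.34 ± 0.08) and TIMP2 (0.22 ± 0.06) were higher after siSF3B1 and MMP10 was lower (−0.88 ± 0.18), and the ranges of all 9 genes overlapped. These DMSO values depended on the siRNA, since MMP1 was at −0.03 between siSF3B1-13 and siRBM39-06, and between siSF3B1-16 and siRBM39-08 MMP14 was at −0.01, TIMP3 at 0.01 and MMP10 at 0.25. MMP2 did not pass the test in either treatment, at 0.02 ± 0.05 in DMSO and 0.04 ± 0.05 in 4OHT, nor did PLAU (−0.05 ± 0.05 and −0.04 ± 0.05) or TIMP1 (0.10 ± 0.09 and 0.18 ± 0.09). Without replicate 4 of siRBM39-08 in 4OHT, however, TIMP1 was higher after siSF3B1 in 4OHT by 0.33 (edgeR adjusted p = 6.92e-06). The siRNAs also differed in 4OHT. Between siSF3B1-13 and siRBM39-06 TIMP3 was called at 0.85, and between siSF3B1-16 and siRBM39-08 at −0.53. MMP10 was likewise called in opposite directions, at −0.15 and 0.28. TIMP1 was called at 0.45 for the first pair and was not called at −0.08 for the second. TIMP2 was at 0.06 between siSF3B1-16 and siRBM39-08 and did not pass the test (edgeR adjusted p = 0.139).

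Other genes of matrix breakdown were taken from lists of protease and inhibitor families. In this comparison 39% of all genes tested were called higher and 39.1% lower, which is the background for each count. Of 18 other MMP genes listed, 5 reached the count minimum, and 2 of these were higher and 3 lower in 4OHT siNT, with MMP16 (1.48) and MMP15 (1.22), both membrane-bound, up and MMP19 (−1.59) down on the log2 scale. Of 5 other inhibitors listed, 3 were tested. TFPI2, a serine protease inhibitor of the matrix, was higher (4.20), and RECK, a membrane-anchored MMP inhibitor, and PCOLCE, an enhancer of procollagen processing, were lower (−1.90 and −2.93). Of 12 genes of plasminogen activation, 10 were tested, 8 were higher and 2 lower, with a median of 1.03 against −0.00 over all genes. These included SERPINB2 (7.91), which inhibits plasminogen activators, PLAUR, the urokinase receptor (2.79), SERPINB8 (2.05) and PLAT, the tissue plasminogen activator (1.95), with LRP1, a receptor that clears protease complexes, among those that fell (−1.07). The RNAs of urokinase, of its receptor and of its inhibitor SERPINB2 thus rose in the same libraries.

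Of 22 ADAM and ADAMTS proteases, 18 were tested, 6 were higher and 11 lower (39% and 39.1% over all genes), led by ADAMTS15 (−4.65), ADAMTS8 (−4.62), ADAM12 (3.22), ADAM19 (2.70), ADAMTS1 (−2.11) and ADAMTS3 (1.87), with a median of −0.64. Of 18 cathepsins and cystatins, 13 were tested, 8 were higher and 3 lower, with the cystatins CST4 (11.41), CST1 (9.61) and CST3 (1.88) and the lysosomal protease CTSS (6.00) up and CTSF (−1.58) down, and a median of 0.47. Of 13 activators and membrane partners of MMPs, 10 were tested, 5 were higher and 2 lower, with CAV1, the caveolar coat protein, changed most (−1.99). In 4OHT, siSF3B1 lowered MMP11 (−1.42), RECK (−1.22), ADAMTS14 (−2.35) and PCSK7, a proprotein convertase (−1.12), and raised ADAMTS5 (2.46), an aggrecanase, ADAMTS1 (1.52), CTSC (1.18) and TSPAN12 (1.72). After siRBM39 the genes of these lists with a log2 change of at least 1 in 4OHT were RECK (−1.57), PLGRKT, a plasminogen receptor (−1.56), ADAMTS14 (−1.85) and PCSK7 (−1.08). Counts per list with siSF3B1 in 4OHT, where 39.4% of all genes were called higher and 37.6% lower, were 4 higher and 1 lower of 5 other MMPs, 2 and 1 of 3 other inhibitors, 3 and 6 of 10 plasminogen genes, 5 and 10 of 18 ADAM and ADAMTS genes, 6 and 0 of 13 cathepsins and cystatins, and 4 and 3 of 10 activators. With siRBM39 in 4OHT, where 32.2% were called higher and 24.3% lower, they were in the same order 2 and 1, 1 and 1, 1 and 5, 2 and 5, 7 and 2, and 3 and 2.

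The genes most like each of the 9 across the 48 libraries were named by Pearson's r of log2 CPM, which mostly reflects the gap between DMSO and 4OHT and is a description only. MMP1 was closest to MMP3 (r = 0.9986), the cytokine gene CSF3 (0.9967) and IL1B, an inflammatory cytokine (0.9953), and MMP3 to MMP1, CSF3 (0.9976) and CDCP1 (0.9962). PLAU was closest to CDCP1 (0.9971), CSF3 (0.9965) and OTUB2 (0.9953), MMP10 to the cathepsin gene CTSS (0.9925), GLA (0.9923) and FOXQ1 (0.9914), and TIMP1 to the metallothionein gene MT2A (0.9929), the cystatin gene CST3 (0.9857) and SPON2 (0.9844). TIMP3 was closest to CDC42EP4 (0.9839), KLF4 (0.9831) and GPRC5A (0.9819), and TIMP2 to GPRC5A (0.9828), CDC42EP4 (0.9817) and FAM127C (0.981). MMP2 was closest to AGT (0.933), NHSL1 (0.9299) and FBXO32 (0.9296), and MMP14 to IRGQ (0.9428), C9orf89 (0.9407) and PPT2 (0.9361), the lowest values among the 9 genes. The libraries are shared by all pairs, and no p is given.

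Splicing was a readout that the choice of these genes did not use. The inclusion table lists 58 cassette exons and 65 introns of the 9 genes, given as percent spliced in (PSI), the share of transcripts that keep the exon or intron. Enough reads in every library were found for 88 of these 123 events, none of them in MMP3 or MMP10, and 9 had a PSI range of at least 5 points. After the study's filter on uneven intron coverage, 3 exons and 1 intron could be tested. RAS activity alone called 0 of the 4 (limma; over all events, 1.62% of cassette exons and 0.0963% of introns were called). At an unadjusted p under 0.05 the count was also 0, and the alternative settings gave 0 as well.

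The third exon of PLAU, 28 nucleotides of coding sequence between introns of 428 and 146 nucleotides, was skipped more often when SF3B1 was depleted. It lies at chr10:75671799-75671826 on GRCh37 (GENCODE v44lift37, exon 3 of 11, plus strand), and its length is not a multiple of 3. It is shown with the 60 bases before and 20 bases after it, since the upstream bases hold the 3′ splice site, near the branch point that SF3B1 binds, and the exon is in capitals.
PLAU exon 3, chr10:75671739-75671846: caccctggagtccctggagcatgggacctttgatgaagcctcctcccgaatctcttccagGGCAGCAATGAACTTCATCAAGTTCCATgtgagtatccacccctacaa
Inclusion ranged from 97.4% to 100% (median 99.1%) in DMSO siNT and from 76.7% to 92.0% (median 88.7%) in DMSO siSF3B1, a difference in mean PSI of −11.7 points (limma adjusted p = 9.99e-16). In 4OHT it ranged from 98.9% to 99.8% (median 99.1%) with siNT and from 77.2% to 82.4% (median 80.5%) with siSF3B1, a difference of −19.2 points (limma adjusted p = 4.85e-20). All siSF3B1 libraries lay below all siNT libraries, with means of 88.4% and 86.2% for siSF3B1-13 and siSF3B1-16 in DMSO and 80.5% and 79.8% in 4OHT. With siRBM39 the mean was 99.8% in DMSO and 99.0% in 4OHT, within 1 point of siNT. Each library had 108 to 245 reads behind this value in DMSO and 754 to 1728 in 4OHT, so the DMSO values are the less precise. Among all events, siSF3B1 called 26.7% of cassette exons and 11.2% of introns in DMSO and 30% and 14.9% in 4OHT, so calls were common.

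The first intron of PLAU, 306 nucleotides at chr10:75670977-75671282 (GRCh37, intron 1 of 10) before the exon that holds the start codon, had a higher PSI in the same libraries, but with nearly all its reads at 1 of its ends. Its last 60 bases are shown with the 3′ splice site in capitals.
PLAU intron 1, chr10:75671223-75671282: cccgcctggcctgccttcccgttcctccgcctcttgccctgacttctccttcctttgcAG
Intron PSI ranged from 1.23% to 9.40% (median 5.82%) in DMSO siNT and from 15.5% to 24.8% (median 21.6%) in DMSO siSF3B1. In 4OHT it ranged from 3.00% to 6.26% (median 3.99%) with siNT and from 28.7% to 39.8% (median 33.2%) with siSF3B1, and the groups did not overlap in either treatment. In 4OHT siSF3B1 a library held 3 to 17 reads over 1 exon-intron junction and 255 to 412 over the other, and in DMSO siSF3B1 0 to 1 and 14 to 49, so these values do not show that the whole intron was kept. This intron failed the filter on even coverage in 2 of 8 DMSO siNT libraries and in 8 of 8 libraries of 4OHT siNT and of both siSF3B1 groups, so it was tested only without that filter, where the differences were 15.5 and 29.5 points (limma adjusted p = 3.15e-09 and 5.60e-15). PLAU RNA as a whole did not pass the test after siSF3B1 in either treatment, as given above.

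The second intron of MMP14, 273 nucleotides at chr14:23310849-23311121 (GRCh37, intron 2 of 9, plus strand), was retained more after either knockdown. It is shown whole, with the splice site dinucleotides in capitals.
MMP14 intron 2: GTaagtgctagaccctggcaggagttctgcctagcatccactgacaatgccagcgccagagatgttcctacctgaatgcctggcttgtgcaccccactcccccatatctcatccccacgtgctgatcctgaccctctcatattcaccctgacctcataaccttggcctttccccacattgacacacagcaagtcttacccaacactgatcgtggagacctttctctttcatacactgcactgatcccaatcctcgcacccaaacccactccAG
Retention ranged from 0.75% to 2.96% (median 1.67%) in DMSO siNT, from 4.93% to 10.7% (median 6.73%) in DMSO siSF3B1 and from 7.09% to 12.3% (median 9.48%) in DMSO siRBM39. The differences in mean PSI were 5.15 points for siSF3B1 (limma adjusted p = 6.83e-08) and 7.50 points for siRBM39 (limma adjusted p = 2.76e-09), and neither knockdown overlapped with siNT. In 4OHT the range was 0.74% to 1.54% (median 1.03%) with siNT, 4.01% to 5.80% (median 5.03%) with siSF3B1 and 2.51% to 8.37% (median 6.09%) with siRBM39, with differences of 3.88 and 4.83 points (adjusted p = 7.33e-08 and 1.51e-07), under the minimum of 5 points for a call. Without replicate 4 of siRBM39-08 the latter was 5.32 points and was called. The DMSO call for siSF3B1 was lost without replicate 4, at 4.32 points. In all, siSF3B1 called 2 member events in DMSO and 1 in 4OHT, and siRBM39 1 in DMSO (over all events 8.35% of cassette exons and 2.04% of introns) and 0 in 4OHT (9.38% and 2.10%; the MMP14 intron passed the adjusted p but not the minimum difference). Among the other tested events, the 156-nucleotide exon of MMP2 changed by −2.24 points in DMSO and −4.22 points in 4OHT with siSF3B1, below the minimum difference, and the 112-nucleotide exon of TIMP3 stayed within 0.834 points of siNT in every knockdown.

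**Figure D4:**
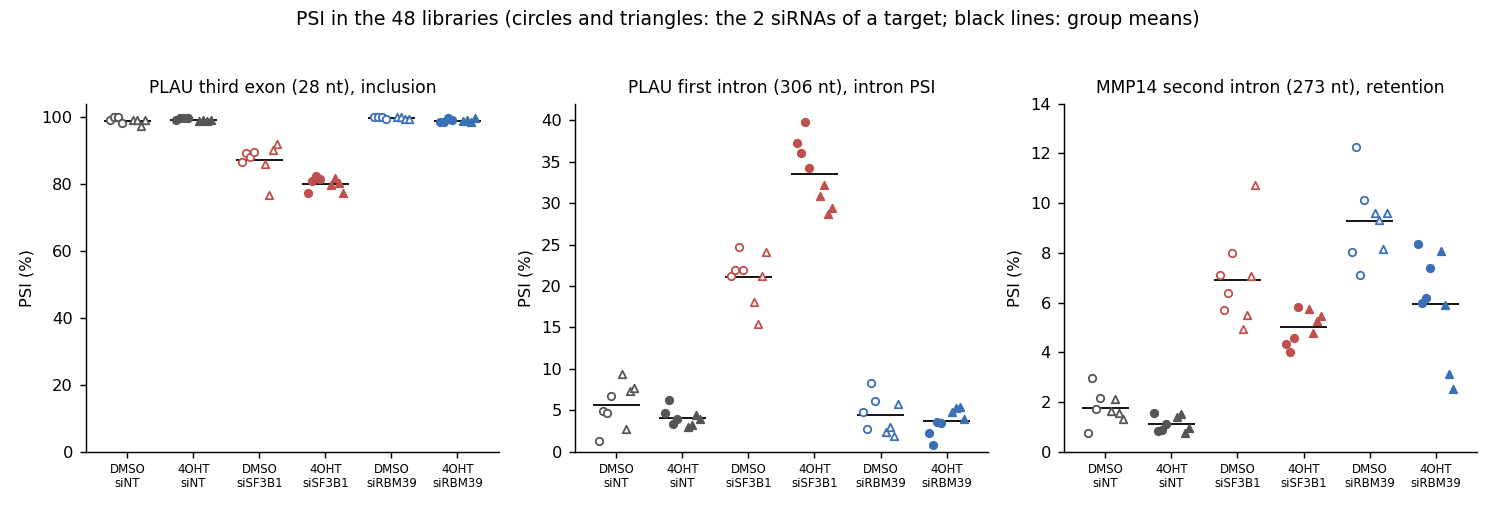
The 3 panels plot PSI in percent (y axis) in the 48 libraries by treatment and siRNA target (x axis) for inclusion of the third exon of PLAU, the first intron of PLAU, which has nearly all its reads at 1 end, and retention of the second intron of MMP14; open symbols are DMSO, filled symbols 4OHT, circles and triangles the 2 siRNAs of a target, and lines group means. PLAU exon inclusion falls to a mean of 87.3% and 80.1% with siSF3B1 only, whereas MMP14 intron retention is higher with both knockdowns.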

How the data were processed

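RNA-seq libraries were made with poly-A capture from IMR90 ER:RAS cells, and 48 of them were analysed in 6 groups of 8. Gene counts are as deposited: the authors aligned and counted reads with vast-tools version 2 against its VAST-DB annotation, called hg19, and gave no normalization. The cRPKM values, an RPKM over mappable length, and PSI, in percent, come from the same run by the authors. Deposited normalised values were not used, and 0 columns of other samples were present.

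Counts were tested with edgeR 4.0.16 (TMM, quasi-likelihood, 1 mean per group, R 4.3.3) over the 9991 genes whose counts sum to 10000 or more, and p-values were adjusted by Benjamini-Hochberg at 0.05. CPM was computed from the counts and the TMM-scaled library sizes. PSI was tested with limma 3.58.1 on its logit (0.01 + 0.98 × PSI as a fraction) over 7513 cassette exons and 5192 introns with coverage in every library, a PSI range of at least 5 points and, in the case of introns, no library with a balance p under 0.05, and a call needed 5 points of difference. Both scripts were tested on simulated data. DESeq2 1.42.0 and limma-voom were alternatives, as were other filters, single siRNAs, left-out replicates and a replicate block. Fits of a single siRNA or a single siNT used 1 mean per siRNA and treatment. Their standard errors leave out the spread between the siRNAs of a target. The 72 pairs of libraries of the same siRNA and treatment all differed beyond sampling noise (lowest chi-square per degree of freedom 1.89). For 4 of the 4OHT siNT2 libraries a second label says siNT1, and the title was used, which leaves the pooled groups as they are. The 9 genes and the lists were chosen with earlier results of these data known. All 9 genes were named in every comparison, and other list genes were named where they passed the test with a log2 change of at least 1 in the RAS comparison or in a knockdown in 4OHT, at most 6 per list by size, except 1 gene that is not reported here. The genes most like a member were the 3 with the highest Pearson's r of log2 CPM (prior count 2). All tests were two-sided. Promoters came from RefSeq, and other sequences from GRCh37, where each event was the 1 exon or intron of its length in the MANE Select transcript (GENCODE v44lift37).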

Additional observations from a re-analysis of the deposited data

Results flagged for a closer look

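In the 72 groups of 8 libraries that were checked, 5 held a library far from the other 7 (Dixon's test), and chance flags about 1 in 20 groups drawn from a single population. Each group mixes the siRNAs of a target, and the same libraries recur across genes, so this rate is only a rough guide. Replicate 4 of siRBM39-08 in 4OHT accounts for 3 of the 5 flags, with 2520 CPM of MMP14, 3872 CPM of TIMP1 and 1114 CPM of TIMP2. The others were replicate 1 of siRBM39-06 in DMSO, with 2597 CPM of TIMP2, and replicate 2 of siSF3B1-16 in DMSO, with 76.7% inclusion of the 28-nucleotide exon of PLAU.

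Knockdown effects that differed between 4OHT and DMSO by the interaction test were those of siSF3B1 on MMP2 (log2 difference 0.36) and of siRBM39 on MMP2 (0.34), TIMP3 (0.71), MMP3 (−0.49) and MMP10 (−0.71). The MMP10 value was −1.06 with siRBM39-06 and −0.09 with siRBM39-08, and the TIMP3 value was 0.33 and 0.99.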

How the results depend on the processing

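Of 1494 log2 changes of the 9 genes under alternative settings, 1367 kept their side of the threshold with no called value reversed (30 of these, called in neither setting, changed sign), 80 passed it newly, 31 lost it and 16 reversed, all 16 with 1 siRNA of the target alone. PSI differences are not in these totals, and counts of called splicing events are given below. All 378 values for RAS activity kept their direction and their call. With siSF3B1-13 or siRBM39-06 alone the reversed values were 0.10 for PLAU (siSF3B1 in DMSO), −0.18 for TIMP3 (siRBM39 in 4OHT), −0.03 for MMP1 and −0.15 for MMP10 (siSF3B1 against siRBM39 in DMSO and in 4OHT). With siSF3B1-16 or siRBM39-08 alone they were −0.01 for MMP2, 0.26 for MMP10, −0.16 for MMP14, −0.00 for TIMP2 and −0.36 for TIMP3 (siSF3B1 in DMSO), −0.32 for MMP1 and −0.10 for PLAU (siRBM39 in DMSO), 0.17 for MMP1 (siRBM39 by RAS), −0.08 for MMP2, 0.25 for MMP10 and −0.01 for MMP14 (siSF3B1 against siRBM39 in DMSO) and −0.53 for TIMP3 (the same in 4OHT). The cause was not tested.

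Counts of the 9 genes called moved for siSF3B1 in DMSO from 5 to 9 (siSF3B1-13 alone), for siRBM39 in DMSO from 4 to 8 (siRBM39-06 alone) and for siRBM39 in 4OHT from 5 to 8 (siNT1 alone). Over all 9991 genes these settings moved the calls from 7268 to 7613, from 4605 to 5960 and from 5639 to 5887. For siSF3B1 by RAS 1 gene became 4 (siSF3B1-13 alone), 5 (siSF3B1-16 alone), 4 (siNT1 alone), 3 (siNT2 alone) and 5 (1 mean per siRNA, chosen after seeing the data), and for siSF3B1 against siRBM39 in 4OHT 4 became 8 (siSF3B1-13 and siRBM39-06). Over all genes the siSF3B1 by RAS calls went from 3781 to 4546, 3694, 3940, 4140 and 4883, in that order. Those of the last comparison went from 7133 to 7059. The settings with a single siRNA or siNT also used 1 mean per siRNA. The part of the siRNA choice and that of the model were not separated. Leaving out a replicate, or only replicate 4 of siRBM39-08 in 4OHT, gave 2 to 6 for siRBM39 in DMSO, 3 to 5 for siRBM39 in 4OHT and 2 to 4 for siRBM39 by RAS. Over all genes these settings gave 3331 to 5581, 4649 to 6013 and 657 to 2499 calls. Of the splicing events, without the balance filter siSF3B1 called 4 in DMSO and 3 in 4OHT and siRBM39 called 2 in DMSO. Of all 8471 introns this setting called 2068, 2517 and 579. Without the minimum difference siSF3B1 called 3 in 4OHT, and siRBM39 called 2 in DMSO and 1 in 4OHT. In the same order it called 4174, 1201 and 1232 of 7513 exons and 2558, 385 and 365 of 5192 introns. Leaving out a replicate gave 1 to 2 for siSF3B1 in DMSO and 0 to 1 for siRBM39 in 4OHT, also 1 without replicate 4 of siRBM39-08 in 4OHT, left out after seeing the data.

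By the median, replicate numbers did not pair the samples: over 264 same-numbered pairs the correlation of deviations ran from −0.898 to 0.79 (median 0.012), with 78 over 0.1. Pairs with different numbers were not compared, and pairing within some of the groups was not tested. With the replicate block, 9 genes were called for RAS in siNT, as without it, and 0 of 99 values changed their call. The depth limits MMP10 in DMSO, at 1.27 to 5.40 CPM, and the PLAU exon in DMSO, at 108 to 245 reads a library.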

Other observations

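MMP7 and MMP9, named after their values were seen, had fewer counts in total than the minimum and were not tested. MMP7, matrilysin, held at most 0.0745 CPM in a DMSO siNT library, against 4.85 to 6.58 CPM in 4OHT siNT and 6.45 to 16.7 CPM in 4OHT siRBM39. MMP9, a gelatinase like MMP2, held at most 0.0993 CPM in a DMSO siNT library, against 5.62 to 7.76 CPM in 4OHT siNT, so that the gelatinases differ in direction between these groups, with MMP9 higher and MMP2 lower in every 4OHT siNT library. MMP13, a collagenase, stayed between 0.0616 and 0.270 CPM in 4OHT siNT.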
